A study of Mus musculus with 20 samples.

Results

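The 10 genes Cd3e, Cd3g, Cd3d, Cd247, Cd2, Lck, Zap70, Cd4, Cd8a and Cd8b1 encode the signaling chains of the T cell receptor complex, its coreceptors, an adhesion partner and the first kinases of its pathway. They were taken by symbol from a table of 14633 genes, and all 10 were present in it. The libraries were poly-A RNA-seq libraries of whole tumors that HEPA1-6 cells, from a mouse hepatoma, had formed under the skin of C57/BL6 mice within 4 weeks. The tumors received an antibody against the chemokine CXCL10 plus GSK343 (n = 5 libraries), that antibody without GSK343 (n = 5), a control antibody plus GSK343 (n = 5), or the control antibody without GSK343 (n = 4, replicates 1, 2, 3 and 5). GSK343 inhibits the Polycomb methyltransferase EZH2, and CXCL10 is a chemokine that attracts activated T cells and NK cells through the receptor CXCR3. All groups carried the HEPA1-6 tumor and an antibody, so no group was free of either. The age and sex of the mice, the antibody clone and isotype, and the doses are not given in the sources used here. Replicate 4 of the control antibody was not analysed here.

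Each T cell carries a variable receptor that binds a peptide held by an MHC molecule but has almost no signaling tail of its own. The gamma, delta and epsilon chains of CD3 and the zeta chain (Cd247) carry the tyrosine motifs that the kinase Lck phosphorylates, and the kinase Zap70 then docks on them and passes the signal to adaptors such as Lat. CD8 and CD4 bind MHC class I and class II and bring Lck to the receptor. The CD3 chains define T cells, whereas Cd247, Zap70, Lck and Cd2 are also used by NK cells, and Cd8a and Cd4 are also carried by some dendritic cells. In tumors these transcripts are used as markers of infiltrating lymphocytes.

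The values are FPKM, fragment numbers scaled to gene length and library size, so levels of different genes can be set side by side. FPKM summed to between 533606 and 629679 per library. The table carries no read totals, so depth and counting error are unknown. Albumin (Alb) averaged 2216 FPKM in control antibody plus GSK343 and 3004 FPKM in control antibody, and all 10 genes of a hepatocyte list were in the table. The design text calls the replicates biological, but no label ties a library to its own animal. P-values therefore measure the spread between these libraries, which may be technical in part. The library numbers in the labels restart between the control-antibody and the anti-CXCL10 libraries, with no stated meaning, so the antibody and that numbering cannot be told apart. In these bulk samples fewer T cells and less RNA per T cell cannot be told apart either.

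The start regions of the receptor genes are shown because these genes moved together and because the CD3 genes are close neighbors. Cd3e (44998743 to 45009590), Cd3g (44969572 to 44980431) and Cd3d (44981793 to 44987052) all lie on chromosome 9 by the positions of the deposited table, and Cd3g and Cd3d stand next to each other, facing away from one another. Cd247 lies on chromosome 1 (165788681 to 165877277), where it overlaps Pou2f1, and Lck on chromosome 4 (129548344 to 129573641). RefSeq windows of 300 bases, 250 before to 50 after a gene start on build GRCm38.p6, were held for 7 of the 10 genes, some with more than 1 start. One window is printed here for each of the 3 CD3 genes, for Cd247 and for Lck, on the strand of the gene from 5′ to 3′. Capitals mark the letters CAGGAAGT or their reverse complement ACTTCCTG, a form of the site bound by ETS transcription factors, searched on both strands.
Cd3e, chr9:45009562-45009861, minus strand: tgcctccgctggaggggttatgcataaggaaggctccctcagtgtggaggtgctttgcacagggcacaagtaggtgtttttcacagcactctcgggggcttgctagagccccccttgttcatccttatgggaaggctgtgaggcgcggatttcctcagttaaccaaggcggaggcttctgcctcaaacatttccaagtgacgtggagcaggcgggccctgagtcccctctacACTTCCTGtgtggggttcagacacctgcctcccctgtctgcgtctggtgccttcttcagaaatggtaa
Cd3g, chr9:44980382-44980681, minus strand: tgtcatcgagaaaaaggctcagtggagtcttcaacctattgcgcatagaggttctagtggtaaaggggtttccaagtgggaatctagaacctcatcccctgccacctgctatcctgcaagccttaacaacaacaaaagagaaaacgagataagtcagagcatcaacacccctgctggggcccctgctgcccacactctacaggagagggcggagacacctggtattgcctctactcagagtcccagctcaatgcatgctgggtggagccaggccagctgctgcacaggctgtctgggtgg
Cd3d, chr9:44981536-44981835, plus strand: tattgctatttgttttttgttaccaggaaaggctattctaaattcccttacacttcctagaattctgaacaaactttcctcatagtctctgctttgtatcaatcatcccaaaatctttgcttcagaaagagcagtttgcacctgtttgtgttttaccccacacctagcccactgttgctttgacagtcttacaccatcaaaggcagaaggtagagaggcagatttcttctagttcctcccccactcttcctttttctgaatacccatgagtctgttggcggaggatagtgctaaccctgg
Cd247, chr1:165788431-165788730, plus strand: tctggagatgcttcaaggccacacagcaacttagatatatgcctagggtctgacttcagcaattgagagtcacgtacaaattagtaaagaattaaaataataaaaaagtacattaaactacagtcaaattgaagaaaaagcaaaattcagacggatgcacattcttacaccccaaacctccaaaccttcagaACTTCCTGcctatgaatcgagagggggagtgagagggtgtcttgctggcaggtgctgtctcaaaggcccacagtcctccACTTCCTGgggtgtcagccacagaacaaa
Lck, chr4:129573592-129573891, minus strand: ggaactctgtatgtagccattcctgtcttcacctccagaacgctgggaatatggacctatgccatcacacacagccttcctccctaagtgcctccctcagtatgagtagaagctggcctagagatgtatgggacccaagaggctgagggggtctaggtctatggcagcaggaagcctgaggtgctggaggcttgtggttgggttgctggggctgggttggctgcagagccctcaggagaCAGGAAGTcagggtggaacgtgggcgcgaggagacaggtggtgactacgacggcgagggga
The ETS letters stood in 4 of the 10 windows of these genes, which belong to Cd3e, Cd247 and Lck, and in 3.33% of all 32851 windows of the table. They stood in the Cd247 window at 2 places. The letters CAGGTG or CACCTG, an E-box, were in 8 of the 10 windows and in 20.2% of all windows. TGTGGT or ACCACA, a RUNX site, was in 2 of the 10 windows and in 16.8% of all. In the 4 windows with ETS letters, those letters shared no base with either other motif. The motifs were chosen after these windows had been seen, and a match is a description of letters and not a bound site.

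Among the 10 genes, Cd3g had the highest level in every group. It averaged 17.9 ± 3.96 FPKM in anti-CXCL10 plus GSK343, 15.9 ± 4.13 in anti-CXCL10, 38.5 ± 13.6 in control antibody plus GSK343 and 14.9 ± 3.63 in control antibody (SD; n = 5, 5, 5 and 4). In anti-CXCL10 plus GSK343, anti-CXCL10 and control antibody the range of Cd3g lay wholly above that of the other 9 genes. In control antibody plus GSK343 its lowest library, at 23.7 FPKM, was below the highest library of Cd3e (24 FPKM) and of Cd2 (25 FPKM). Below it, Cd3e, Cd3d, Lck, Cd8a, Cd8b1 and Cd2 formed an overlapping middle class. Their means lay between 5.78 and 8.09 FPKM in anti-CXCL10 plus GSK343, between 5.05 and 7.37 in anti-CXCL10, between 11.7 and 16.1 in control antibody plus GSK343 and between 5.0 and 6.24 in control antibody. Neighbors in the middle of that order overlapped in range in every group. Zap70 came next, with means of 3.77, 3.22, 6.29 and 3.68 FPKM in the same order of groups. Cd247 and Cd4 were lowest, at 2.0 and 1.78 FPKM in anti-CXCL10 plus GSK343, 1.64 and 1.67 in anti-CXCL10, 4.2 and 3.95 in control antibody plus GSK343, and 1.65 and 1.83 in control antibody. The ranges of Cd247 and Cd4 overlapped in all 4 groups, and Zap70 stood wholly above both in the anti-CXCL10 groups with and without GSK343.

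**Figure D1:**
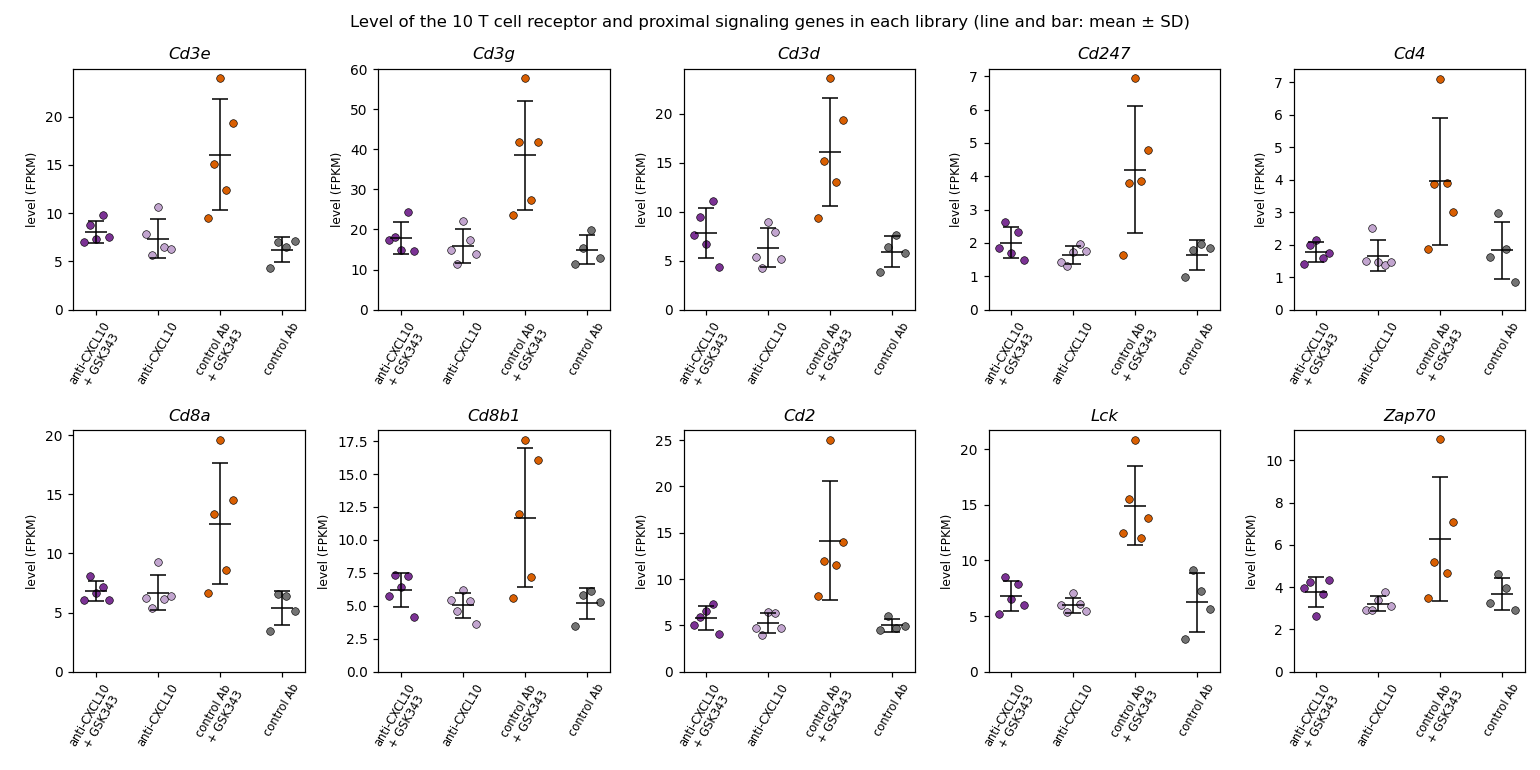
Level of each of the 10 genes in every library (FPKM, linear axes from 0, a scale of its own for each gene), with 1 point per library and the line and bar giving the mean ± SD of the group. Control antibody plus GSK343 has the highest mean for each gene, and for Cd3g its libraries lie between 23.7 and 57.8 FPKM, against 11.5 to 19.8 in control antibody.

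With GSK343 under the control antibody, 8 of the 10 genes rose. The CD3 chains, Cd2, Lck and Cd8a rose about 2-fold or more on the log2(FPKM + 1) scale, and in these 6 genes every treated library lay above every control library. Cd247 and Cd8b1 also rose, and Zap70 and Cd4 did not pass the test. Calls are those of limma across 14385 genes at a Benjamini-Hochberg adjusted p under 0.05, of which 4.36% were called higher and 5.47% in either direction. Groups without overlap, with the treated libraries above, were found for 4.05% of genes. The median change of the 10 genes was 1.11, against -0.03 over all genes tested.

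Of the CD3 chains, Cd3g, the gamma chain, had 23.7, 41.8, 57.8, 27.3 and 41.9 FPKM in replicates 1 to 5 of control antibody plus GSK343, against 11.5, 15.5, 19.8 and 13.0 FPKM in control antibody. The groups did not overlap, with replicate 1 lowest and replicate 3 highest of the treated libraries. Cd3g rose by 1.27 ± 0.24 (SE, log2 of FPKM + 1, limma adjusted p = 0.0052). Cd3e, the epsilon chain, pairs with both the gamma and the delta chain. It had 9.45, 15.1, 24, 12.4 and 19.3 FPKM in the treated libraries, against 4.33, 6.97, 6.48 and 7.10 FPKM in control antibody. Again the lowest treated library stood above the highest control library, and the change was 1.19 ± 0.22 (limma adjusted p = 0.00473). Cd3d, the delta chain, had 9.37, 15.2, 23.6, 13.0 and 19.3 FPKM in control antibody plus GSK343, against 3.85, 6.43, 7.59 and 5.78 FPKM in control antibody. It rose by 1.27 ± 0.27 with no overlap (limma adjusted p = 0.00975). The treated libraries took the same places for Cd3e and Cd3d, with replicate 3 highest, then 5, 2, 4 and 1.

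Cd247, the zeta chain, was the one signaling chain whose groups overlapped. It had 1.63, 3.80, 6.93, 3.87 and 4.78 FPKM in control antibody plus GSK343, against 0.982, 1.78, 1.97 and 1.86 FPKM in control antibody, so treated replicate 1 lay below 3 of the 4 control libraries. It rose by 0.91 ± 0.22 (limma adjusted p = 0.0239). Cd247 no longer passed without control replicate 1 (adjusted p = 0.105) or control replicate 5 (0.0552). The same held without treated replicate 3 (0.0648) or treated replicate 5 (0.0539). Levels this low are the least certain ones, and the log2(FPKM + 1) scale understates their change.

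The coreceptor CD8 on cytotoxic T cells is a pair of an alpha and a beta chain. Cd8a had 6.65, 13.3, 19.6, 8.62 and 14.5 FPKM in control antibody plus GSK343, against 3.44, 6.59, 6.43 and 5.13 FPKM in control antibody. The groups stood apart by a small margin, since the lowest treated and the highest control library were 6.65 and 6.59 FPKM, and the change was 1.02 ± 0.23 (limma adjusted p = 0.0153). Cd8b1, which conventional CD8 T cells carry and dendritic cells lack, had 5.59, 12, 17.6, 7.17 and 16.1 FPKM in the treated libraries, against 3.47, 5.78, 6.14 and 5.32 FPKM in control antibody. Treated replicate 1 fell among the controls, and the change was 0.95 ± 0.26 (limma adjusted p = 0.0383). Cd4, the coreceptor of helper and regulatory T cells, had 1.86, 3.87, 7.11, 3.90 and 3.0 FPKM in control antibody plus GSK343, against 1.61, 2.99, 1.86 and 0.864 FPKM in control antibody. It differed by 0.77 ± 0.24 and missed the threshold (limma adjusted p = 0.0689), with 4 of 5 treated libraries above the highest control. The Cd8a call was lost without control replicate 1 (adjusted p = 0.074) or 5 (0.0506). The Cd8b1 call was lost without control replicate 1 (0.158), 2 (0.0586) or 5 (0.0869), or treated replicate 2 (0.0857), 3 (0.112) or 5 (0.0926). Cd4 passed without control replicate 2 (0.034) or treated replicate 1 (0.00958).

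Cd2, an adhesion receptor that binds CD48 in the mouse and aids the contact between T cell and target, had 8.21, 12, 25.0, 11.5 and 14 FPKM in control antibody plus GSK343. In control antibody it had 4.45, 5.99, 4.67 and 4.90 FPKM. Cd2 rose by 1.25 ± 0.22 without overlap (limma adjusted p = 0.00457). Lck, the kinase that starts the phosphorylation, had 12.5, 15.5, 20.8, 12 and 13.8 FPKM in the treated libraries, against 2.92, 9.13, 7.28 and 5.62 FPKM in control antibody. It rose by 1.19 ± 0.21 without overlap (limma adjusted p = 0.00473), and its lowest treated library, at 12 FPKM, stood above its highest control library, at 9.13 FPKM. Zap70, the kinase that docks on the phosphorylated chains, had 3.48, 5.19, 11, 4.69 and 7.07 FPKM in control antibody plus GSK343, against 3.24, 4.61, 3.94 and 2.93 FPKM in control antibody. Its change of 0.57 ± 0.21 was the smallest of the 10 and did not pass (limma adjusted p = 0.135). It passed without treated replicate 1 (adjusted p = 0.0227).

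Replicate 3 of control antibody plus GSK343 was the highest of all 19 libraries for each of the 10 genes. Replicates 2 and 5 of that group were among the 5 highest libraries for all 10, and replicate 4 for 9 of them. Replicate 1 of the group reached the 5 highest for 2 genes. At the other end, replicate 1 of control antibody was the lowest library for 6 of the 10. Without control replicate 1, or without control replicate 5, 5 of the 10 genes passed, namely Cd3e, Cd3g, Cd3d, Cd2 and Lck. These 5 were past the threshold in each of the 19 fits that leave out 1 library. Fitted with the compared groups alone, 4 of the 10 passed.

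**Figure D2:**
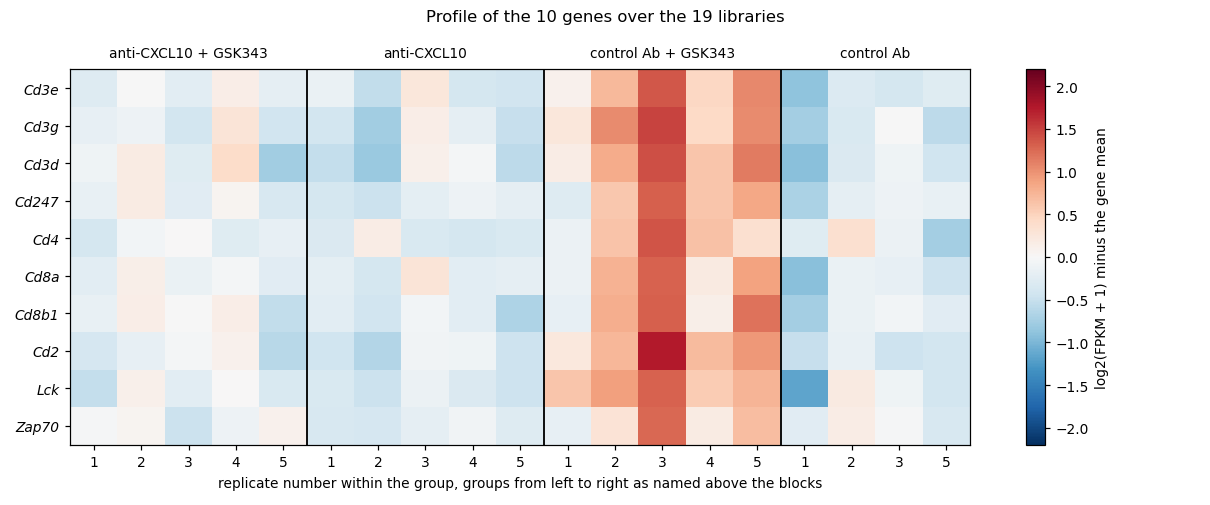
Level of the 10 genes in each of the 19 libraries as log2(FPKM + 1) minus the mean of the gene over all libraries (color scale, red above and blue below the mean), with libraries grouped from left to right and numbered by replicate. The block of control antibody plus GSK343 is red for most genes, deepest in replicate 3 and near 0 for most genes in replicate 1, and replicate 1 of control antibody is the bluest column for 6 genes.

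Other tissue and cell markers also varied between these libraries, along with the T cell genes in some libraries and not in others. The highest muscle sum stood in treated replicate 4, where the 10 T cell genes summed to 104 FPKM, against 213 FPKM in treated replicate 3. The summed level of a skeletal muscle list (14 of its 15 genes in the table) lay between 54.2 and 2588 FPKM in control antibody plus GSK343, with 620, 2588 and 578 FPKM in replicates 3, 4 and 5. It lay between 22.3 and 108 FPKM in control antibody. In that list 1 of 14 genes rose and 0 fell in limma, against 4.36% of all genes called higher. Its median change was 2.59, against -0.03 over all genes, so the few calls do not mean a small change. Treated replicates 1 and 2 had muscle sums of 54.2 and 97.8 FPKM, inside the control range. The 10 T cell genes summed to 82.4 and 138 FPKM there, against 39.7 to 66.1 FPKM in control antibody. Replicate 2 lay above every control library for all 10 genes, and replicate 1 lay within the control range for Cd247, Cd8b1, Cd4 and Zap70. Treated replicate 1 had both the lowest muscle sum and the lowest T cell gene sum of its group. In anti-CXCL10 without GSK343, muscle sums were 96.9, 6.13, 241, 331 and 11.1 FPKM in replicates 1 to 5. The 10 T cell genes summed to 56.3, 47.2, 77.2, 62.7 and 51.7 FPKM in those libraries. The part of muscle in the change was not tested beyond the fits below. In a fit without treated replicates 3, 4 and 5, all 10 changes kept their direction, from 0.18 for Zap70 to 1.13 for Lck, but 0 of the 10 passed in limma with 2 treated libraries left. With muscle and keratinocyte scores as covariates, changes lay between 0.46 for Zap70 and 1.06 for Cd3g, and 0 passed.

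The hepatocyte list (10 of 10 in the table) summed to between 4602 and 6752 FPKM in control antibody plus GSK343, against 7174 to 9101 FPKM in control antibody. In that list 3 of 10 genes fell and 0 rose, the tested member with the smallest p being the liver factor Foxa1 at -0.65 ± 0.12 (limma adjusted p = 0.00478). Of all genes tested, 5.47% were called in either direction and 4.36% higher. The keratinocyte list (9 of 10 in the table) summed to between 41.4 and 386 FPKM in control antibody plus GSK343 and between 61.6 and 581 FPKM in control antibody, and 0 of 9 genes passed in limma. The B cell list had 3 of 10 genes in the table, and its surface markers were not analysed here. Those 3 summed to between 228 and 862 FPKM in the treated group, against 8.01 to 221 FPKM in control antibody, and both tested ones, the immunoglobulin genes Ighm and Igkc, rose. What part these other tissues and cells had in the T cell gene differences was not tested.

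Under anti-CXCL10, GSK343 moved 0 of the 10 genes past the threshold. Over all 14385 genes, 0.0% were called in limma (0 genes, and 418 at an unadjusted p under 0.05), and limma without trend and robust moderation also called 0. For the 10 genes themselves 0 had an unadjusted p under 0.05. Their changes lay between 0.04 for Cd8a and 0.26 for Cd3d, with a median of 0.16 against 0.01 over all genes.

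The values of the 6 genes whose groups stood apart under the control antibody follow, and those of the other 4 are given as intervals. Cd3e had 7.01, 8.74, 7.36, 9.77 and 7.54 FPKM in anti-CXCL10 plus GSK343, against 7.86, 5.67, 10.6, 6.48 and 6.24 FPKM in anti-CXCL10. The highest library of the comparison was one without GSK343, and the change of 0.14 ± 0.20 had a 95% interval from -0.29 to 0.57. Cd3g had 17.5, 18.2, 14.8, 24.4 and 14.7 FPKM with GSK343, against 14.9, 11.3, 22.2, 17.3 and 13.8 FPKM without it. The groups overlapped almost wholly, and the interval ran from -0.29 to 0.64. Cd2 had 5.03, 5.87, 6.56, 7.34 and 4.09 FPKM in anti-CXCL10 plus GSK343, against 4.73, 3.95, 6.43, 6.31 and 4.70 FPKM in anti-CXCL10, with an interval from -0.32 to 0.56. Lck had 5.14, 8.50, 6.54, 7.90 and 6.02 FPKM with GSK343, against 5.97, 5.34, 7.04, 6.07 and 5.44 FPKM without it. Its interval ran from -0.27 to 0.58, and the lowest library of the comparison was treated. Cd8a had 6.10, 8.13, 6.62, 7.12 and 6.06 FPKM in anti-CXCL10 plus GSK343, against 6.23, 5.41, 9.27, 6.11 and 6.37 FPKM in anti-CXCL10. For Cd8a the interval was from -0.42 to 0.50. Cd3d had 7.62, 9.41, 6.68, 11.1 and 4.4 FPKM with GSK343, against 5.4, 4.23, 8.94, 7.95 and 5.16 FPKM without it, an interval from -0.27 to 0.78. The highest library of Cd3d was treated and the lowest was not, and the groups overlapped. For Cd247 the interval ran from -0.27 to 0.62, for Cd4 from -0.40 to 0.54, for Cd8b1 from -0.27 to 0.76 and for Zap70 from -0.25 to 0.58. The Zap70 interval thus held the 0.57 seen under the control antibody, and the other 9 intervals ended below the change of the same gene there, which is no test of the difference.

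The test of the difference between these GSK343 effects, anti-CXCL10 minus control antibody, passed for 0 of the 10 genes. Over all genes 0.0626% were called in limma, which is 9 genes, all lower. The estimates were negative for each of the 10, from -1.14 ± 0.31 for Cd2 to -0.40 ± 0.29 for Zap70, with a median of -1.0 against 0.04 over all genes. Unadjusted p was under 0.05 for 8 of the 10 and for 1862 of all 14385 genes, and adjusted p ranged from 0.128 for Cd2 to 0.618 for Zap70. limma without trend and robust moderation called 0 of the 10 as well. Of the 19 fits that leave out 1 library, only 1 brought any of the 10 genes past the threshold. It left out the library with the lowest sum of the 10 genes in its group (82.4 FPKM). Without replicate 1 of control antibody plus GSK343, 476 genes passed, and with them Cd2 (-1.29, adjusted p = 0.0237), Cd3e (-1.21, 0.0255), Cd247 (-0.95, 0.0303), Cd8a (-1.17, 0.0303) and Cd3g (-1.24, 0.0341).

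**Figure D3:**
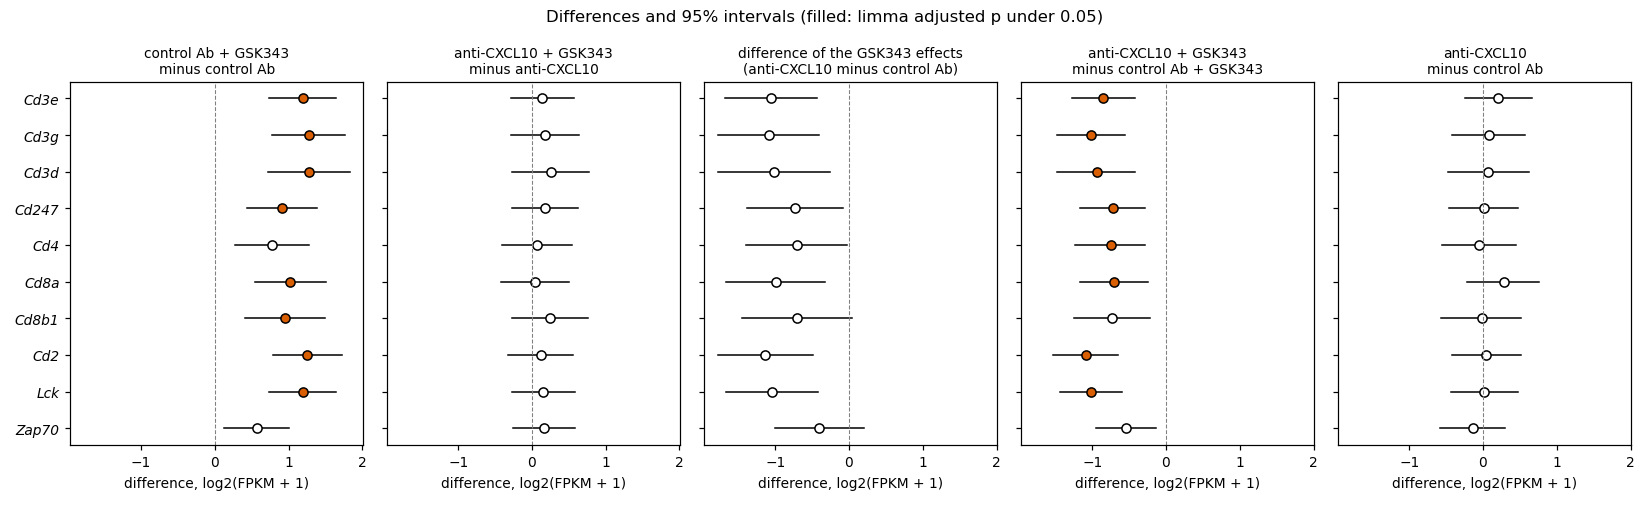
Difference of each gene in log2(FPKM + 1) in the 5 contrasts, as the limma estimate with its 95% interval, filled where the adjusted p was under 0.05. GSK343 under the control antibody and anti-CXCL10 in the presence of GSK343 have 8 filled points each on opposite sides of 0, and the other contrasts have none.

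Among GSK343-treated tumors, the anti-CXCL10 group was lower than the control antibody group for 8 of the 10 genes. This comparison uses the same control antibody plus GSK343 libraries as the one above, so the lists of genes called in each are not independent. Of all genes tested, 6.64% were called lower in limma and 10.1% in either direction, and 4.65% had all anti-CXCL10 libraries below the others. The median change of the 10 was -0.80, against 0.03 over all genes.

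Cd2 and Lck were the genes whose groups stood apart. Cd2 lay between 4.09 and 7.34 FPKM in anti-CXCL10 plus GSK343, against 8.21 to 25.0 FPKM in control antibody plus GSK343, and fell by 1.09 on the log2 scale (± 0.21, limma adjusted p = 0.00457). Lck lay between 5.14 and 8.50 FPKM in anti-CXCL10 plus GSK343, against 12 to 20.8 FPKM in control antibody plus GSK343 (-1.02 ± 0.20, limma adjusted p = 0.00562). For Cd3g and Cd3e, 4 of the 5 anti-CXCL10 libraries were below the lowest of the other group, and replicate 4 was the exception. Cd3g fell by 1.01 (limma adjusted p = 0.00902) and Cd3e by 0.85 (0.0145). These 4 genes were past the threshold in each of the 19 fits that leave out 1 library.

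Cd3d (-0.94 ± 0.25, limma adjusted p = 0.0244), Cd4 (-0.75 ± 0.23, 0.0411), Cd247 (-0.72 ± 0.21, 0.0376) and Cd8a (-0.71 ± 0.22, 0.0464) also fell. Cd8b1 (-0.73 ± 0.24, 0.0652) and Zap70 (-0.54 ± 0.20, 0.0887) did not pass. Cd4 had 1.40, 2.0, 2.16, 1.59 and 1.76 FPKM in anti-CXCL10 plus GSK343, against 1.86, 3.87, 7.11, 3.90 and 3.0 FPKM in control antibody plus GSK343. The Cd3d call held in 15, the Cd247 call in 12, the Cd4 call in 8 and the Cd8a call in 5 of the 19 fits that leave out 1 library, with adjusted p of at most 0.0715, 0.0972, 0.103 and 0.122. Counted over the 10 genes, 5 passed without anti-CXCL10 plus GSK343 replicate 1 or control antibody plus GSK343 replicate 2. Only 4 passed without replicate 3 or 5 of either of these groups, and 4 passed with the compared groups fitted alone. With a pseudocount of 0.1 the calls of Cd4 (adjusted p = 0.0501) and Cd8a (0.0512) were lost. Muscle sums were 15.8 to 127 FPKM in anti-CXCL10 plus GSK343, against 54.2 to 2588 FPKM in control antibody plus GSK343. With muscle and keratinocyte covariates, changes lay between -0.81 for Cd3g and -0.43 for Cd247 and Cd8b1, and without replicates 3, 4 and 5 of control antibody plus GSK343 between -0.95 for Lck and -0.16 for Zap70. In each of these fits 0 of the 10 passed in limma.

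Without GSK343, the anti-CXCL10 and control antibody groups were close for all 10 genes. Changes ran from -0.14 for Zap70 to 0.28 for Cd8a, with a median of 0.03, and 0 of the 10 passed in limma or had an unadjusted p under 0.05. Of all genes 0.0139% were called, which is 2 genes. Cd3g had 14.9, 11.3, 22.2, 17.3 and 13.8 FPKM in anti-CXCL10, against 11.5, 15.5, 19.8 and 13.0 FPKM in control antibody. These groups interleave, and the 95% interval of the change was -0.42 to 0.57. Cd8a had the largest estimate, with 5 of 5 anti-CXCL10 libraries above the control mean of 5.40 FPKM and an interval from -0.21 to 0.76 (limma adjusted p = 0.824).

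The proportions of the genes to each other were compared as differences of log2(FPKM + 1) within a library, called log2 ratios here, for 6 pairs in 4 comparisons. Of these 24 exact two-sided permutation tests, 0 had a Benjamini-Hochberg adjusted p under 0.05 (smallest 0.571), and 2 had an unadjusted p under 0.05. The smallest p that groups of 5 and 4 libraries allow is 0.0159, and for 5 and 5 libraries 0.00794. The Cd247 to Cd3e log2 ratio averaged -1.73 ± 0.20 in control antibody plus GSK343 and -1.45 ± 0.09 in control antibody (SD), below the control mean in 5 of 5 treated libraries (difference -0.29, exact p = 0.0476). That difference rests on the pseudocount. It was -0.1 with a pseudocount of 0.1, and the plain FPKM ratios had medians of 0.252 in control antibody plus GSK343 and 0.258 in control antibody, with overlapping ranges. The Cd8b1 to Cd8a log2 ratio averaged -0.34 ± 0.24 in anti-CXCL10 and -0.04 ± 0.09 in control antibody, below the control mean in 5 of 5 libraries (difference -0.30, exact p = 0.0317). Neither held after adjustment.

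As a share of levels, Cd8a stood at a median of 4.07 times Cd4 in anti-CXCL10 plus GSK343, 4.32 in anti-CXCL10, 3.43 in control antibody plus GSK343 and 2.83 in control antibody. The ratio ranged from 2.14 to 6.27 over all libraries, so Cd8a exceeded Cd4 in each of the 19. The group ranges overlapped in all 4 comparisons. Cd8a was at a median of 0.87, 0.943, 0.75 and 0.87 times Cd3e in the same order of groups. Cd3e against Ptprc, the pan-leukocyte gene CD45, had medians of 0.865, 0.643, 0.823 and 0.583 times. Its spread was widest in the anti-CXCL10 groups, reaching 2.43 in one library with GSK343 and 2.28 in one without.

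**Figure D4:**
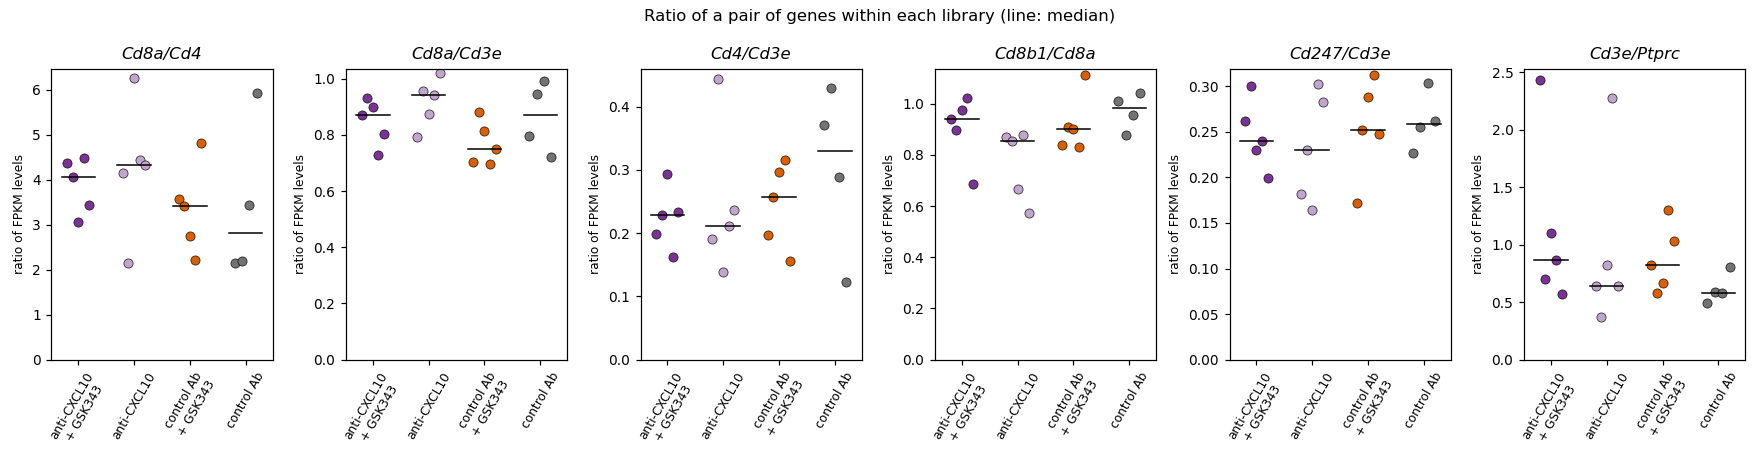
Ratio of FPKM levels for 6 pairs of genes within each library (linear axes from 0, 1 point per library, line at the group median). The Cd8a to Cd4 ratio is above 2 in every library and the 4 groups overlap in each panel.

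The other genes of the pathway moved in part with these 10. Of 38 signaling adaptors, kinases, phosphatases and transcription factors listed, 32 were in the table and 31 were tested. With GSK343 under the control antibody, 10 of the 31 rose and 0 fell, with a median of 0.49 against -0.03 over all genes. The share of all genes called higher was 4.36%. The 4 with the smallest p were Vav1, a nucleotide exchange factor, Ptpn22, a phosphatase that restrains Lck, the membrane adaptor Lax1, and Rhoh, a blood-cell GTPase needed for receptor signaling. Ptpn22 averaged 13.7 FPKM in control antibody plus GSK343 and 4.34 FPKM in control antibody and rose by 1.53 ± 0.24 (limma adjusted p = 0.00247). Vav1 averaged 10.4 and 4.53 FPKM in those groups (1.03 ± 0.15, adjusted p = 0.00185). Lax1 rose by 0.80 ± 0.14 (0.00458) and Rhoh by 0.69 ± 0.13 (0.0052). Lax1 averaged 2.09 FPKM in control antibody plus GSK343 but 0.739 FPKM in control antibody, below the 1 FPKM asked for in 5 libraries before testing. In control antibody, 6 of the 32 genes were under 1 FPKM in every library. Genes that low enter the test more readily if 1 group is high, so the count of risen genes is not independent of the filter. Bcl10 (0.01), Csk (0.06) and Plcg1 (-0.16), which most cell types express, did not pass, and these 3 are named after their values were seen. Ptprc, the pan-leukocyte gene, is on the same list and did not pass either (0.80 ± 0.44, limma adjusted p = 0.361). Genes that missed the threshold were thus not only those that most cell types express.

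In the presence of GSK343, 9 of the 31 signaling genes were lower with anti-CXCL10 and 0 higher, with a median of -0.34. The share of all genes called lower was 6.64%. Vav1 averaged 4.94 FPKM in anti-CXCL10 plus GSK343 and 10.4 FPKM in control antibody plus GSK343 (-0.94 ± 0.14, limma adjusted p = 0.0014). Rhoh (-0.66 ± 0.12, 0.00377), Lax1 (-0.60 ± 0.13, 0.00989) and Ptpn22 (-0.92 ± 0.22, 0.016) fell too. The limit of the filter holds here as well, since Lax1 averaged 0.996 FPKM in anti-CXCL10 plus GSK343. In GSK343 under anti-CXCL10, in anti-CXCL10 without GSK343 and in the difference of the effects, 0 of the 31 passed in limma.

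The constant regions of the receptor chains themselves were covered for 4 of 12 listed symbols. Trbc2, a beta chain constant region, averaged 64.2 FPKM in control antibody plus GSK343 and 25.2 FPKM in control antibody and rose by 1.3 ± 0.23 (limma adjusted p = 0.00473). Trac, the alpha chain constant region, averaged 21.6 and 8.42 FPKM in those groups and rose by 1.15 ± 0.30 (0.0303). Trbc1 (0.94 ± 0.30, 0.0813) and the gamma chain gene Tcrg-C2 (0.81 ± 0.31, 0.152) did not pass. Trbc1 and Trbc2 are near-identical copies, so the split of fragments between them is uncertain. With GSK343 present, Trbc2 was lower with anti-CXCL10 (-1.06 ± 0.22, limma adjusted p = 0.00687), and the other 3 did not pass.

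A further list of T cell genes held mostly surface and cytokine receptors, and also some transcription factors. Of its 14 tested genes (19 listed), 9 rose with GSK343 under the control antibody, and 0 fell. Of all genes tested, 4.36% were called higher. Named by smallest p, these were Il2rb (1.12 ± 0.22) and Il2rg (1.29 ± 0.27), chains of the interleukin receptors for T cell growth, Cd5 (1.01 ± 0.20), a brake on receptor signaling, and the chemokine receptor Cxcr6 (1.16 ± 0.26). Their limma adjusted p lay between 0.00715 and 0.0159. In the presence of GSK343, 10 of the 14 were lower with anti-CXCL10, against 6.64% of all genes. Of the 16 genes of this list in the table, 4 were under 1 FPKM in every anti-CXCL10 library. In anti-CXCL10 plus GSK343, 3 of the 16 were under 1 FPKM in every library. The limit of the filter thus holds for these counts as well.

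The rise was not limited to T cell genes, and 4.36% of all genes were called higher. Of an NK cell list 5 of 7 tested genes rose with GSK343 under the control antibody, with Klre1 (1.39 ± 0.20) and Klrd1 (1.51 ± 0.27), lectin-like receptors of NK cells, and Tyrobp (1.11 ± 0.19) and Fcer1g (1.09 ± 0.19), signaling adaptors that myeloid cells share. NK list sums were 305 to 488 FPKM in control antibody plus GSK343, against 117 to 209 FPKM in control antibody. Most of these sums came from Fcer1g and Tyrobp. Fcer1g averaged 198 and 93.4 FPKM in those groups, and Tyrobp 139 and 64.2 FPKM. The NK sums are therefore largely a reading of adaptors that myeloid cells share. Of a macrophage list 8 of 11 rose, with the complement genes C1qc (1.05 ± 0.20) and C1qb (1.06 ± 0.22), the Fc receptor Fcgr1 (0.82 ± 0.16) and Ms4a7 (1.10 ± 0.22). Macrophage sums were 1159 to 2089 FPKM in the treated group, against 478 to 967 FPKM in control antibody.

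Of a dendritic cell list, some of whose cells carry Cd8a, 2 of 8 genes rose, Itgax (1.17 ± 0.26) and Irf8 (0.61 ± 0.15). Clec9a (0.45 ± 0.13, limma adjusted p = 0.0569) and Batf3 (0.60 ± 0.23, 0.154), which mark the Cd8a-bearing type, did not pass, although the 5 treated libraries lay above every control library for Clec9a. Of a list for naive cells and lymph node homing, Klf2 (1.18 ± 0.24) rose and S1pr1 (-0.49 ± 0.12) fell. Ccl19 (0.88 ± 0.30, adjusted p = 0.103) did not pass. What part NK or dendritic cells had in the change of the 10 genes was not tested.

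When GSK343 was present, 5 of 7 NK, 8 of 11 macrophage, 5 of 8 dendritic cell and both tested B cell genes were lower with anti-CXCL10, and 5 of 10 hepatocyte genes were higher. Of all genes tested, 6.64% were called lower in that comparison and 10.1% in either direction. The dendritic markers Clec9a (-0.49 ± 0.13, limma adjusted p = 0.0205) and Batf3 (-0.74 ± 0.22, 0.0374) were among the lower ones. Ighm (-3.70 ± 0.73, limma adjusted p = 0.00567) and Igkc (-4.43 ± 0.96, 0.00899) differed most of these genes, with no overlap between the groups. B cell list sums were 7.61 to 85.9 FPKM in anti-CXCL10 plus GSK343, against 228 to 862 FPKM in control antibody plus GSK343. NK sums were 164 to 213 FPKM in anti-CXCL10 plus GSK343, against 305 to 488 FPKM in control antibody plus GSK343. Fcer1g (means of 94.6 and 198 FPKM) and Tyrobp (71.0 and 139 FPKM) again made up most of them. Macrophage sums were 693 to 934 FPKM in anti-CXCL10 plus GSK343, against 1159 to 2089 FPKM in control antibody plus GSK343. The sums of all 3 lists stood apart between these groups, and the part of those cells in the change of the 10 genes was not tested.

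**Figure D5:**
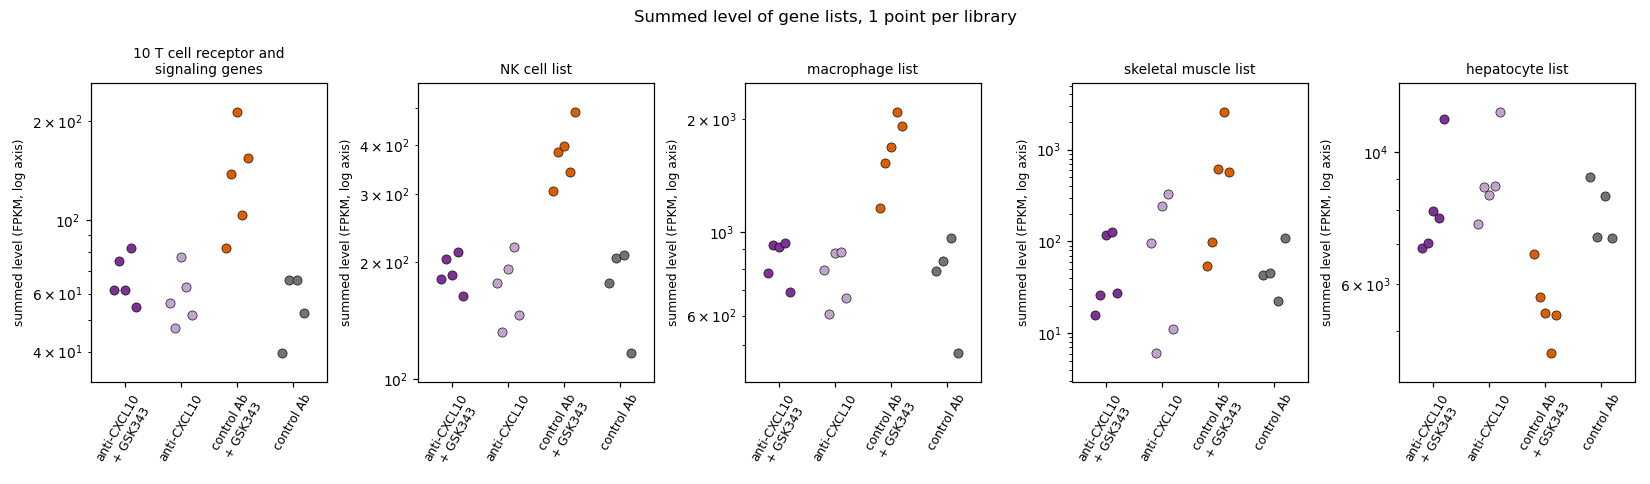
Summed FPKM of the 10 genes and of 4 marker lists in each library (log axes, 1 point per library). The sum of the 10 genes is 82.4 to 213 FPKM in control antibody plus GSK343 and 39.7 to 66.1 FPKM in control antibody, and all libraries of that group are above all others for the NK and macrophage sums and below all others for the hepatocyte sum. The muscle sums overlap, with 54.2 and 97.8 FPKM in 2 libraries of that group and up to 331 FPKM in anti-CXCL10. The NK sum is mostly Fcer1g and Tyrobp, adaptors that myeloid cells share.

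The genes most like the CD3 chains were found by the root mean square distance between a gene's profile over the 19 libraries and the mean profile of Cd3e, Cd3g and Cd3d, both on log2(FPKM + 1) and centered on their means. Outside the 10, the 6 nearest of 14385 genes were Ptprcap (0.149), Nkg7 (0.15), Lat (0.16), Cxcr6 (0.18), Rac2 (0.192) and Selplg (0.201). Ptprcap binds CD45, Nkg7 belongs to cytotoxic granules, Lat is the adaptor that Zap70 phosphorylates, Rac2 is a blood-cell GTPase and Selplg is a ligand of selectins. The median distance of all genes was 0.639, and a gene that does not vary at all would lie at 0.589. Nkg7 averaged 21.1 FPKM in anti-CXCL10 plus GSK343, 18.3 in anti-CXCL10, 44.9 in control antibody plus GSK343 and 16.2 in control antibody. Lat averaged 5.93, 5.54, 13.8 and 5.22 FPKM in the same order.

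Among the 10 genes, Cd2 (0.188), Cd8b1 (0.191), Cd8a (0.193), Cd247 (0.212) and Lck (0.237) lay near the CD3 profile. Zap70 (0.337) and Cd4 (0.409) were the farthest of the 10, at ranks 235 and 584 of all genes, and they were the same 2 genes that missed the threshold with GSK343 under the control antibody. That match is in part built in, since a gene that changes less in the same libraries lies farther from the CD3 profile. For Cd4, a low gene, the size of the change also rests on the pseudocount. With a pseudocount of 0.1 and GSK343 under the control antibody, it was 1.06 for Cd4 and 1.06 for Cd8b1. Cd4 still missed the threshold there (limma adjusted p = 0.0716). The distances are a description of these 19 libraries, since all genes share the same tumors.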

How the data were processed

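The authors deposited 1 table of FPKM values per gene and library. The tools named by the submitters' processing notes are StringTie 1.3.3b, HISAT2 2.1.0, HTSeq 0.6.0, TopHat2 2.1.0 and Trimmomatic 0.33, and the builds are mm10 and GRCm38; their roles and the strand setting are not given in the sources used here. FPKM as the unit was inferred from the values, since length-weighted column sums varied by 0.79% (CV) and plain sums by 4.064%. Every row had at least 1 FPKM in 4 libraries, so low genes may have been removed before deposit.

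Rows of 8 gene IDs listed several times were added, leaving 14633 genes, and 14385 with at least 1 FPKM in 5 libraries were tested. Values were fitted as log2(FPKM + 1) in 1 model of 4 group means with limma 3.58.1 (R 4.3.3, trend and robust moderation) and Benjamini-Hochberg adjustment. Ratios were tested by exact permutation (scipy 1.17.1). The fit was tested on simulated data. Alternatives were pseudocount 0.1, other filters and scalings, a replicate block, marker covariates and left-out libraries.

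The members and lists were chosen with earlier results of these data known. From each list, up to 4 genes with the smallest p in GSK343 under control antibody are named, and all 10 members. One gene that meets this rule is not reported here.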

Additional observations from a re-analysis of the deposited data

Results flagged for a closer look

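In 64 checks of a group of libraries for a single value far from the rest, 3 groups had one, and chance alone gives about 1 in 20. In anti-CXCL10 without GSK343, replicate 2 had 2.51 FPKM of Cd4, against at most 1.5 FPKM in the other 4 libraries. In the same group, replicate 3 had 9.27 FPKM of Cd8a, against at most 6.37 FPKM in the others. In control antibody plus GSK343, replicate 5 had a log2 ratio of Cd8b1 to Cd8a of 0.15, the highest of that group.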

How the results depend on the processing

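Depth is unknown, so low genes such as Cd4 and Cd247 carry an unstated counting error. With the compared groups fitted alone, 233 genes passed for GSK343 under control antibody (4 of the 10 T cell genes) and 1 for anti-CXCL10 without GSK343; for anti-CXCL10 with GSK343, 4 of the 10 passed. With muscle and keratinocyte covariates 3, 14, 0 and 0 genes passed for GSK343 under control antibody, anti-CXCL10 with GSK343, the difference of effects and anti-CXCL10 without GSK343, and 0 of the 10 in the first pair. Without replicates 3, 4 and 5 of control antibody plus GSK343 these counts were 15, 497, 1 and 0, again with 0 of the 10; fewer libraries were fitted there. The causes were not tested. The samples share only a replicate number: 12 of 27 same-numbered pairs of libraries deviated together above 0.1 (correlations -0.199 to 0.318). Pairs with different numbers were not compared, so this count cannot show whether libraries were paired. With the replicate block, 57 genes passed for the difference of effects, 0 for anti-CXCL10 without GSK343, and 9 and 8 of the 10 genes for GSK343 under control antibody and anti-CXCL10 with GSK343 (Cd4 at adjusted p = 0.0373 in the first).

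Leaving out 1 library gave 299 to 1389 genes (5 to 10 of the 10) for GSK343 under control antibody, 837 to 1829 (4 to 10) for anti-CXCL10 with GSK343, 0 to 476 (0 to 5) for the difference, 0 to 2 for anti-CXCL10 without GSK343 and 0 to 1 for GSK343 under anti-CXCL10. Pseudocount, filter, scaling and moderation settings kept all 5 counts of genes within 1.5 times. Pseudocount 0.1 ended the Cd4 and Cd8a calls in anti-CXCL10 with GSK343 (adjusted p = 0.0501 and 0.0512), leaving 6 of the 10.

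Reversals were seen in 42 of the alternative values, all of differences that had passed no adjusted test. In anti-CXCL10 without GSK343, the change with covariates was -0.04 for Cd247, -0.03 for Cd2 and 0.02 for Cd4, and with the replicate block -0.02 for Cd247. Over the fits without 1 library it ranged from -0.12 to 0.07 for Cd247, -0.03 to 0.12 for Cd2, -0.09 to 0.19 for Cd3d, -0.05 to 0.21 for Cd3g, -0.23 to 0.13 for Cd4, -0.17 to 0.07 for Cd8b1 and -0.24 to 0.21 for Lck, and for Cd8a in GSK343 under anti-CXCL10 from -0.02 to 0.15. For ratios in anti-CXCL10 with GSK343, pseudocount 0.1 gave -0.01 for Cd247/Cd3e and -0.08 for Cd4/Cd3e, and leaving out the 3 libraries gave 0.04 for Cd8b1/Cd8a. Without 1 library, ratios there ranged from -0.08 to 0.36 for Cd3e/Ptprc, -0.04 to 0.18 for Cd4/Cd3e, -0.08 to 0.17 for Cd8a/Cd4 and -0.06 to 0.06 for Cd8b1/Cd8a. In GSK343 under anti-CXCL10 they ranged from -0.07 to 0.11 for Cd247/Cd3e, -0.22 to 0.11 for Cd4/Cd3e and -0.20 to 0.10 for Cd8a/Cd4, and in anti-CXCL10 without GSK343 from -0.04 to 0.52 for Cd3e/Ptprc and 0.00 to 0.13 for Cd8a/Cd3e.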
